A study of Mus musculus with 20 samples.

Results

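The FOS and JUN genes encode the core subunits of the transcription factor AP-1. The 7 genes of the family (Fos, Fosb, Fosl1, Fosl2, Jun, Junb and Jund) were looked up by symbol in 4 tables of RNA sequencing values from mouse cortical neurons. Of these, 6 were listed in all 4 tables and Fosl1 was listed in none, so 6 genes are described among the 13688 that all tables share. The neurons came from embryonic cortices (day 15) and had been grown for 7 days. The genotypes were wild type (WT) and knockout (KO) for ciRS-7, a circular RNA made from the Cdr1as gene, and the strain label C57BL/6N-Cdr1asem1Nikr was given to both genotypes. Normoxic cultures (N) spent 12 h in medium with 25 mM glucose, and cultures under oxygen-glucose deprivation (OGD), used to model ischaemia, spent that time at 1% oxygen in medium without added glucose. There were 5 libraries of each combination (N_WT, N_KO, OGD_WT, OGD_KO), and the labels call the cultures biological replicates without saying whether they came from separate litters.

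AP-1 binds DNA as a dimer of basic leucine zipper proteins. JUN proteins can pair with each other or with FOS proteins, whereas FOS proteins need a partner, and c-Fos with c-Jun is the classical pair. Fos, Fosb, Jun and Junb are immediate early genes, which neurons transcribe within minutes of depolarisation, calcium entry or stress from a pre-assembled promoter, while Jund is expressed more steadily. Phosphorylation of c-Jun by JNK kinases is a known part of the neuronal stress response, and the mRNAs of several members are short-lived.

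The promoters of Fos, Jun, Junb and Fosb are shown because they carry short matches to elements that CREB, ATF and AP-1 proteins can bind. Sequences were taken from the RefSeq promoter table (assembly GRCm38.p6), which held all 6 members, and run 5′ to 3′ on the gene's own strand up to the base before the RefSeq start site, except for Fosb. Capitals mark TGACG, the core of a cyclic AMP response element, or TGACNTCA, an 8-base form of the element with a free base in the fifth place.
Fos, chr12:85473770-85473889, plus strand: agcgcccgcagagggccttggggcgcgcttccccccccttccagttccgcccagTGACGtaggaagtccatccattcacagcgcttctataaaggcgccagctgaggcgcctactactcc
Jun, chr4:95052223-95052342, minus strand: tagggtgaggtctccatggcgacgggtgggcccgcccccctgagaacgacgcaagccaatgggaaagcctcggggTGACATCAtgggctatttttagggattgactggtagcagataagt
Junb, chr8:84978749-84978908, minus strand: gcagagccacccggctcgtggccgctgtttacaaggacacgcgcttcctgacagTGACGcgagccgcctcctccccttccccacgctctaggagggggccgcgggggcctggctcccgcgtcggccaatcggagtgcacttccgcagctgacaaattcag
Fosb, chr7:19310089-19310117, minus strand: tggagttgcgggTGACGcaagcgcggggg
The Fosb stretch is only the surroundings of its match, since another RefSeq transcript starts nearby. For Fosl2 and Jund the RefSeq start lies at 671 and -1210 bases from the GENCODE gene start (minus meaning upstream), and no stretch is shown.

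In windows of 300 bases (250 before and 50 after the start), searched on both strands, TGACG began at positions -129 and -66 of Fos, -60 of Fosb and -106 of Junb. It was found in 20.8% of 32851 RefSeq promoters, so a match alone is common. Jun held TGACATCA at -45, a match to TGACNTCA, which 8.83% of promoters held; any TGACGTCA is also a match to both TGACNTCA and TGACG, and 1.79% of promoters held it. CCAAT, the box bound by NF-Y, began at -65 in Jun and at -36 in Junb and was found in 37.4% of promoters. Jund held ACGTG, the core of a hypoxia response element, at -83 and -74 on the opposite strand, against 19.6% of promoters with a match. No member window held TGANTCA, the general form of the AP-1 element (7.81% of promoters), or the CArG box of serum response factor (1.63%). Bases outside these windows were not searched, and the windows of Fosl2 and Jund follow their RefSeq starts. These matches describe the letters of the windows and are not evidence of binding in these neurons.

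Depth and library checks bear on every value below. The counts recovered for a library ranged from 7071506 to 16658618. The row Cdr1as, which covers the gene and not the circular RNA alone, had 700 to 1365 counts in N_WT and 5 to 16 in N_KO, and 545 to 1912 in OGD_WT against 2 to 14 in OGD_KO, so every library had the level its genotype label implies. Across 12684 genes the libraries with replicate numbers 3 and 1 deviated least from their group mean (SD of log2 deviations 0.116 to 0.156 and 0.168 to 0.173), and the others deviated by 0.278 to 0.428. Number 3 stands for WT3, alone in batch 3.2, and KO3, alone in batch 2, and number 1 stands for batch 1. A low deviation therefore goes with the smaller batches and need not mean a cleaner library. Deviations of the N and OGD libraries of a culture had r from -0.80 (KO3) to 0.03 (WT4), with WT3 at -0.71 and 6 of 10 cultures below -0.1. Summed over the libraries of a labelled batch, the deviations had between 4.67% and 29.0% of the variance of independent libraries. Values with that property may understate the spread between cultures, and the labels used here do not say what was done to the batches. A shift common to a batch leaves the difference between the N and OGD libraries of a culture as it is. Batch 2 held only a KO culture and batch 3.2 only a WT culture.

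Under deprivation Fos, Fosb, Jun, Junb and Jund rose in both genotypes, and Fosl2 did not pass the test in either. Fosb, which encodes a partner of JUN proteins, had the largest fitted rise in both genotypes, and Jund had the smallest of the 5. In KO the rank of Fosb was not stable: without replicate 1 its fitted rise was 2.59 against 2.82 for Jun, and with limma's library weights 1.91 against 2.45. With limma and Benjamini-Hochberg adjustment over all genes of a table, 5 of the 6 listed members were called higher at an adjusted p under 0.05 in each genotype. Among all genes, 44.3% were called in WT (21.6% higher and 22.8% lower) and 40.9% in KO (21% higher and 19.9% lower), so a call alone is frequent in these data. The median log2 fold change of the 6 members was 2.66 in WT and 2.32 in KO, beside medians of -0.03 and 0.003 over all genes tested.

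Bulk RNA cannot separate a change in the number of cells of a type from a change in RNA per cell. Markers of some other cell types moved with the response. The summed CPM (counts scaled to a common library size) of 6 astrocyte markers was 565 to 718 in N_WT and 1135 to 1491 in OGD_WT, and 548 to 753 in N_KO and 994 to 1267 in OGD_KO. Slc1a3 contributed the most CPM to this sum, and the list did not move as a whole: 4 of 6 were called higher in WT and 3 in KO, Gfap was called lower in WT, at -0.47, and Aqp4 was at 0.05 in WT and 0.01 in KO on the log2 scale. For 4 markers of dividing cells it was 382 to 492 in N_WT, 714 to 1309 in OGD_WT, 354 to 600 in N_KO and 877 to 1217 in OGD_KO. The 8 neuron markers, all listed, had 4121 to 5524 in N_WT, 2747 to 5092 in OGD_WT, 4697 to 4902 in N_KO and 3024 to 3866 in OGD_KO, and 4 of them were called lower in WT and 5 in KO. Of 6 oligodendrocyte lineage markers, 1 was called higher and 2 lower in WT, and 2 higher and 0 lower in KO. Their median log2 fold change was -0.04 in WT and 0.06 in KO. None of 6 microglia markers was listed. The part of cell composition in the members' rise was not tested.

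Levels are given as log2 CPM (with a prior count of 2 and all 20 libraries on a common scale), in the order of replicates 1 to 5. These numbers name cultures and have no order.

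**Figure D1:**
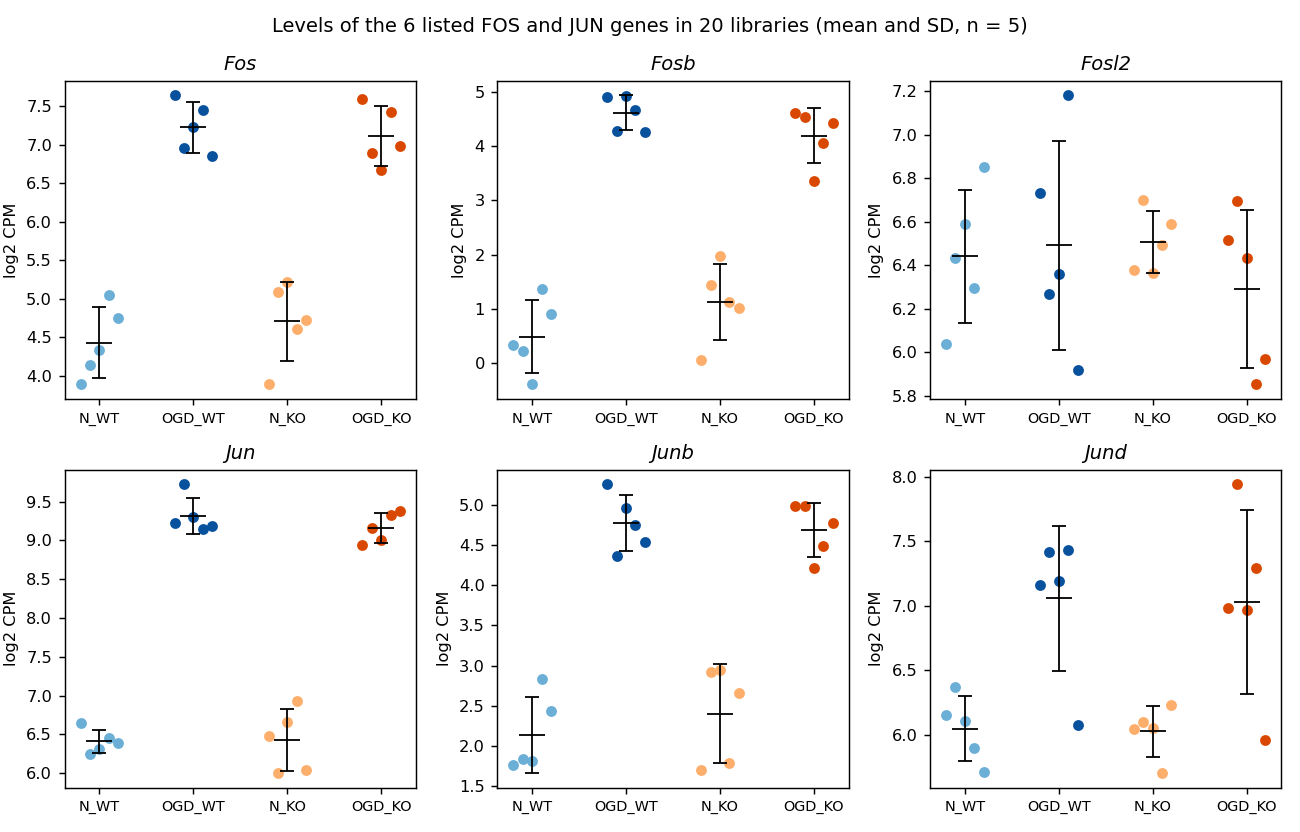
Each panel plots the log2 CPM (vertical axis) of 1 gene in the 20 libraries of the 4 groups (horizontal axis); points are libraries, in replicate order, and the bar and whiskers are the mean and SD of 5. For Fos, Fosb, Jun and Junb all OGD libraries lie above all N libraries, whereas Jund and Fosl2 overlap between conditions; the vertical scales differ between panels.

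Fos encodes c-Fos, the founding FOS protein. Its log2 CPM was 3.89, 4.14, 4.34, 5.04 and 4.75 in N_WT and 7.64, 6.96, 7.23, 7.46 and 6.86 in OGD_WT. In the knockout it was 3.90, 5.09, 5.21, 4.62 and 4.72 in N_KO and 7.60, 6.89, 6.68, 7.43 and 6.98 in OGD_KO. The conditions were far apart in both genotypes, with no overlap, and the lowest normoxic level of either genotype was that of replicate 1, which also had the highest level under deprivation. The fitted log2 fold change was 2.77 (SE 0.20, limma adjusted p = 7.07e-10) in WT and 2.41 (SE 0.22, adjusted p = 2.21e-07) in KO.

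Fosb encodes FosB and, by alternative splicing, the truncated and long-lived protein ΔFosB; the gene-level values do not separate these forms. Normoxic levels were close to the detection limit, at 0.35, 0.24, -0.39, 1.38 and 0.90 in N_WT (6 to 26 counts) and 0.07, 1.44, 1.97, 1.13 and 1.03 in N_KO (10 to 37 counts). Under deprivation the log2 CPM was 4.91, 4.29, 4.92, 4.67 and 4.27 in OGD_WT (191 to 461 counts) and 4.62, 4.53, 3.36, 4.05 and 4.42 in OGD_KO (125 to 328 counts). All OGD libraries were above all N libraries, and replicate 3 of OGD_KO was the lowest of its condition. The fitted log2 fold change was 3.88 (SE 0.22, limma adjusted p = 3.66e-11) in WT and 2.92 (SE 0.27, adjusted p = 1.95e-07) in KO. A prior count understates the change of a gene with so few normoxic counts.

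Fosl2 encodes Fra-2, a FOS-related protein without the transactivation domain of c-Fos and FosB. Its log2 CPM was 6.04, 6.43, 6.59, 6.29 and 6.85 in N_WT and 6.73, 6.27, 6.36, 7.18 and 5.92 in OGD_WT. In N_KO it was 6.38, 6.70, 6.36, 6.49 and 6.59, and in OGD_KO 6.52, 6.69, 6.43, 5.85 and 5.97. The conditions overlapped in both genotypes, and the OGD libraries were the more scattered (SD 0.48 against 0.31 in WT and 0.36 against 0.14 in KO). The fitted log2 difference was 0.03 (95% confidence interval -0.37 to 0.44, limma adjusted p = 0.903) in WT and -0.20 (-0.56 to 0.15, adjusted p = 0.351) in KO. Scaling by total counts, tried after seeing the data, moved the median of all genes to -0.30 in WT and -0.28 in KO, and the Fosl2 difference in KO to -0.50, which passed the test (adjusted p = 0.0361). With that scaling the other 5 members stayed called higher in both genotypes.

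Jun encodes c-Jun, a JUN protein that JNK phosphorylates. Its log2 CPM was 6.64, 6.25, 6.31, 6.45 and 6.39 in N_WT and 9.22, 9.72, 9.30, 9.14 and 9.18 in OGD_WT. In N_KO it was 6.48, 6.00, 6.66, 6.93 and 6.05, and in OGD_KO 8.94, 9.16, 9.01, 9.33 and 9.38. The groups did not overlap, and replicate 2 of OGD_WT stood above the other 4. The fitted log2 fold change was 2.89 (SE 0.15, limma adjusted p = 1.15e-11) in WT and 2.75 (SE 0.18, adjusted p = 7.91e-09) in KO.

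Junb encodes JunB, a JUN protein that can oppose c-Jun at some promoters. Its log2 CPM was 1.76, 1.84, 1.81, 2.84 and 2.43 in N_WT and 5.26, 4.36, 4.96, 4.75 and 4.54 in OGD_WT. In N_KO it was 1.69, 2.92, 2.94, 1.79 and 2.66, and in OGD_KO 4.98, 4.98, 4.22, 4.49 and 4.77. No OGD library reached down to a normoxic one, and the N_KO libraries fell into a lower pair and a higher trio. The fitted log2 fold change was 2.56 (SE 0.20, limma adjusted p = 3.63e-09) in WT and 2.24 (SE 0.23, adjusted p = 8.94e-07) in KO.

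Jund encodes JunD, the JUN protein of resting cells. Its log2 CPM was 6.16, 6.37, 6.11, 5.90 and 5.71 in N_WT and 7.16, 7.42, 7.19, 7.44 and 6.08 in OGD_WT. In N_KO it was 6.05, 6.10, 6.05, 5.70 and 6.23, and in OGD_KO 6.98, 7.94, 6.97, 7.29 and 5.96. The conditions overlapped in both genotypes through replicate 5 of OGD, which lay within the normoxic range in each. The fitted log2 fold change was 0.99 (SE 0.21, limma adjusted p = 0.000582) in WT and 1.01 (SE 0.25, adjusted p = 0.00336) in KO. Thus 4 of the 6 listed members had all 5 OGD libraries above all 5 N libraries, in WT and in KO, which 13.9% and 13.4% of all genes had.

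The 5 called members were called in WT under each of 13 distinct alternative fits and in KO under each of 14, which included leaving out each culture and fitting only the cultures of batches 3.1, 3.2 and 3.3 (in WT this is the fit without replicate 1). In those batches the fitted log2 fold change in WT was 3.77 for Fosb, 2.97 for Jun, 2.53 for Fos, 2.35 for Junb and 0.99 for Jund. In KO it was 3.01 for Fosb, 2.97 for Jun, 2.29 for Fos, 2.25 for Junb and 1.06 for Jund. Batch 1 held 1 culture of each genotype and batch 2 held 1 KO culture, so no test could be made within them.

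N and OGD libraries of the same genotype and number were taken as 1 culture. The response of a member was therefore also read as a difference within a culture. Fosb rose most, by a mean of 3.59 ± 1.09 on the log2 scale (SD over 10 cultures), followed by Jun at 2.82 ± 0.40, Fos at 2.60 ± 0.75, Junb at 2.46 ± 0.70, Jund at 1.00 ± 0.61 and Fosl2 at -0.08 ± 0.58. Fos, Fosb, Jun and Junb were higher in 10 of 10 cultures, Jund in 9 and Fosl2 in 4. Jund in culture KO5 was the exception, at -0.27, while Jun and Fosb in that culture had responses of 3.33 and 3.39.

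**Figure D2:**
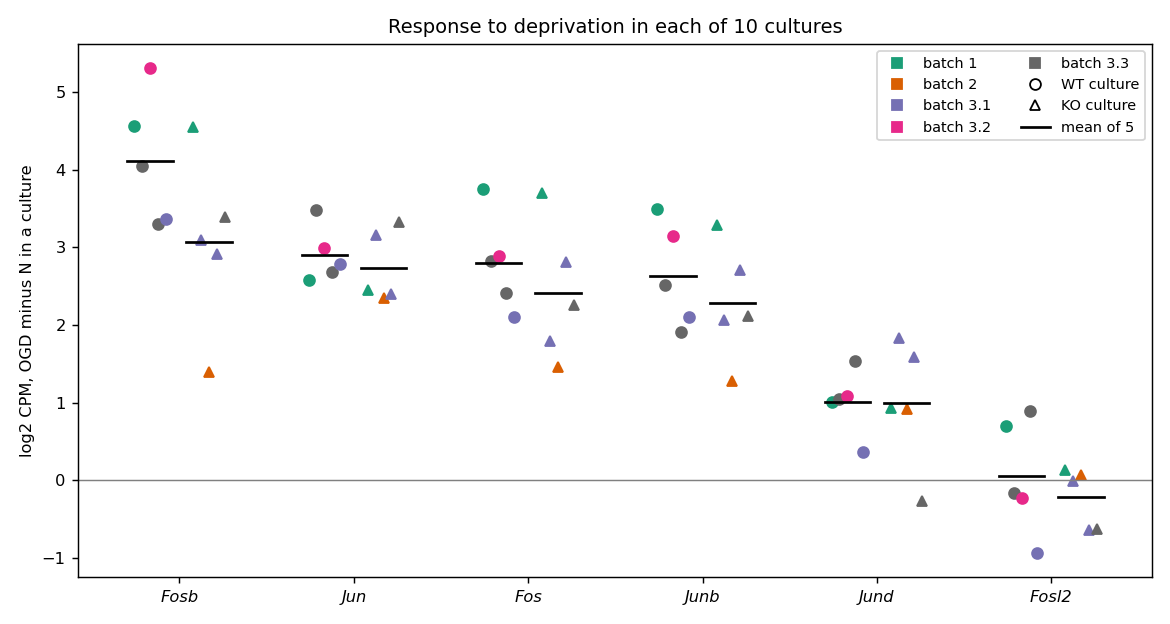
The vertical axis is the log2 CPM of the OGD library minus that of the N library of the same culture, for 6 genes (horizontal axis); circles are WT and triangles KO cultures, colours are batches, and lines are means of 5. Fosb spans 1.39 to 5.31, whereas Jun spans only 2.35 to 3.48, and Fosl2 lies on both sides of 0.

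Jun varied least between cultures, from 2.35 to 3.48. Fosb varied most, from 1.39 in KO3, the culture of batch 2, to 5.31 in WT3, the culture of batch 3.2. The normoxic libraries of KO3 and WT3 held only 31 and 6 Fosb counts, against 831 and 807 for Jun. The part of low counts in the spread of Fosb was not tested. Fos responses were highest in the batch 1 cultures WT1 and KO1, at 3.75 and 3.70, and lowest in KO3, at 1.47. Junb followed the same pattern, with 3.50 in WT1, 3.29 in KO1 and 1.27 in KO3. For Jun, WT1 and KO1 were at 2.58 and 2.46, below its mean.

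Differences between members were tested by exact sign-flip permutation over the 10 cultures (two-sided, smallest possible p 0.00195), with adjustment over all 15 pairs. Of these, 11 pairs differed at an adjusted p under 0.05. Fosb exceeded Junb by 1.13 in 10 of 10 cultures (exact p = 0.00195, adjusted p = 0.00326) and Fos by 0.99 in 9 of 10 (exact p = 0.00391, adjusted p = 0.00533). Fosl2 and Jund each differed from every other member. The pairs that did not pass were Fos with Jun (a difference of -0.22, exact p = 0.451), Fos with Junb (0.14, exact p = 0.129), Jun with Junb (0.36, exact p = 0.213) and Fosb with Jun (0.77, exact p = 0.0449, adjusted p = 0.0562).

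Fos and Junb responded together across cultures. Pearson's r of their responses was 0.94 over 10 cultures (permutation p = 0.0001, adjusted over 15 pairs 0.0015) and Spearman's rho was 0.92 (permutation p = 0.0006, adjusted 0.009). Without KO3 and WT1, the cultures farthest from the median of Fos, r was 0.87. Within the 7 cultures of batches 3.1 to 3.3, r was 0.79 (exact p = 0.0373) and rho was 0.75. The exact p-values of batch 3 were not adjusted over pairs. Fosb with Junb had r = 0.87 (permutation p = 0.00147, adjusted 0.011; rho 0.77, permutation p = 0.0125, adjusted 0.0626), 0.79 without KO3 and WT3, and 0.73 in batch 3 (exact p = 0.0538). Fos with Fosb had r = 0.78 (permutation p = 0.00748, adjusted 0.0374; rho 0.81, permutation p = 0.00704, adjusted 0.0528), 0.63 without KO3 and WT1, and 0.55 in batch 3 (exact p = 0.195). Both relations of Fosb therefore missed the threshold by rank after adjustment, and again within batch 3. There rho was 0.43 for Fosb with Junb and 0.54 for Fos with Fosb. All 3 pairs draw on the same 20 libraries.

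Over the 10 cultures Jun did not pass with any of these genes. Its r with Fos was -0.17 (permutation p = 0.637; rho -0.02, permutation p = 0.973), with Junb -0.07 (permutation p = 0.843; rho -0.02, permutation p = 0.973) and with Fosb 0.28 (permutation p = 0.442; rho 0.37, permutation p = 0.294). Within batch 3, r of Jun was -0.14 with Fos (rho 0), -0.07 with Junb (rho 0.07) and 0.33 with Fosb (exact p = 0.502, rho 0.61). By rank, Fosb was thus no closer to Junb (rho 0.43) or Fos (rho 0.54) than to Jun in those cultures. Jund and Fosl2 passed with no other member (largest r 0.46, between them, permutation p = 0.186). With 10 cultures a weak relation could not be told from none.

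**Figure D3:**
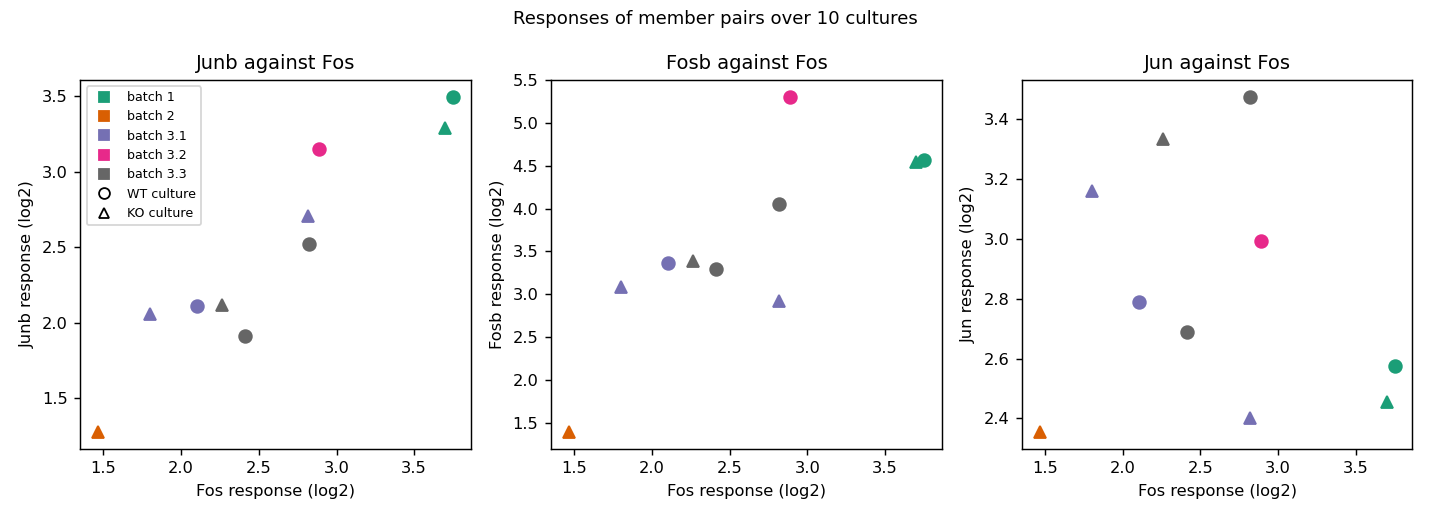
Each point is a culture, with the log2 response of Fos on the horizontal axis and that of Junb, Fosb or Jun on the vertical axis; circles are WT, triangles are KO and colours are batches. Junb lies close to a line with Fos (r = 0.94), whereas Jun shows no such line (r = -0.17), and KO3 is at the lower left of all 3 panels.

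Levels can be compared between genes only per length of transcript. Using the exons of GENCODE M21, Jund was the most abundant member in normoxia, at 40.1 ± 6.96 CPM per kb in N_WT and 39.3 ± 5.04 in N_KO (mean ± SD, n = 5). Jun followed at 26.7 ± 2.91 and 27.7 ± 7.66. Fos was at 9.51 ± 3.14 and 11.6 ± 3.70 and Fosl2 at 9.13 ± 1.95 and 9.41 ± 0.94. Junb was at 1.92 ± 0.71 and 2.38 ± 0.95, and Fosb was lowest at 0.218 ± 0.11 and 0.354 ± 0.17. For Jund the GENCODE exons span 1.668 kb, while its RefSeq start lies at -1210 bases from the GENCODE start. Its rank among the members may therefore depend on the gene model.

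Under deprivation Jun was the most abundant, at 202 ± 36.3 CPM per kb in OGD_WT and 181 ± 24.4 in OGD_KO. Jund was at 83.9 ± 25.7 and 85.8 ± 40.0, and Fos at 65.0 ± 14.8 and 60.6 ± 16.5. Junb had 12.1 ± 3.04 and 11.4 ± 2.50, Fosl2 9.71 ± 3.39 and 8.28 ± 2.02, and Fosb 3.97 ± 0.87 and 3.05 ± 0.93. Fosb had the lowest level of the 6 in every group. Its GENCODE exons include a retained intron, which lengthens the model and lowers the value per kb.

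The makeup of the family's transcripts moved from Jund to Jun. Jund made up 45.6% ± 6.73 of the summed CPM per kb in N_WT and 21.9% ± 4.81 in OGD_WT, and 43.5% ± 6.32 in N_KO and 23.9% ± 8.81 in OGD_KO (SD, n = 5). Jun went from 30.5% ± 3.44 to 53.9% ± 7.36 in WT and from 30.5% ± 8.18 to 52.2% ± 8.32 in KO. Fos went from 10.9% ± 3.71 to 17.4% ± 3.62 in WT and from 12.6% ± 3.52 to 17.4% ± 4.58 in KO, and Fosl2 from 10.5% ± 2.55 to 2.58% ± 0.81 and from 10.4% ± 1.25 to 2.39% ± 0.60. These shares follow from the levels above, so they depend on the same gene lengths, and were not tested separately.

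**Figure D4:**
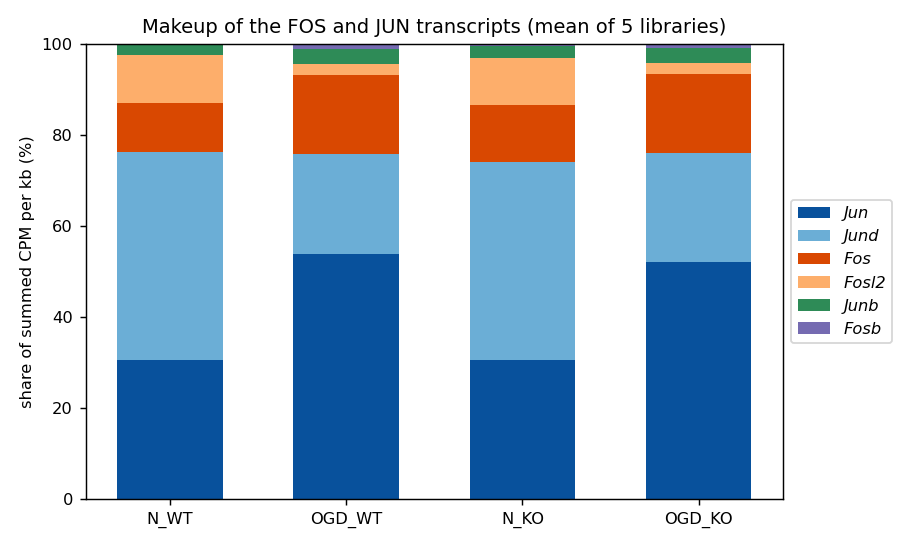
Bars give the mean share (%, vertical axis) of each gene in the summed CPM per kb of the 6 genes, for the 4 groups (horizontal axis, 5 libraries each). With GENCODE M21 exon lengths, Jund is the largest part in N_WT (45.6%) and N_KO (43.5%), and Jun in OGD_WT (53.9%) and OGD_KO (52.2%).

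Some members share their locus with other genes. Jun (chr4:95049034-95052222, minus strand, GRCm38) is a single-exon gene that the antisense gene Junos overlaps by 689 bases, and Jund (chr8:70698949-70700616, plus strand) is a single-exon gene overlapped by Gm11175 over 919 bases. Junb (chr8:84974484-84978718, minus strand) shares 351 bases with Prdx2, a peroxiredoxin gene on the opposite strand. The library kit kept strand, but whether the counting used it is not given in the sources used here, so reads of these partners may be included. Prdx2 itself had a fitted log2 difference under deprivation of 0.22 in WT and 0.23 in KO (limma adjusted p = 0.212 in each), and Junos and Gm11175 were not listed. Fos (chr12:85473890-85477273, plus strand), Fosb (chr7:19302696-19310051, minus strand) and Fosl2 (chr5:32135801-32157842, plus strand) overlap no other gene. On the sense strand no 50-base word of any listed member occurs in another GENCODE gene. On the opposite strand 48.3% of the words of Jund occur in Gm11175, 5.83% of those of Jun in Junos and 5.76% of those of Junb in Prdx2.

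No member was called as changed by the knockout in either condition, except when limma's library weights were used. All genes together gave 0.0353% called in normoxia (5 of 14152, with 256 at an unadjusted p under 0.05) and 0.0282% under deprivation (4 of 14185, with 253 at an unadjusted p under 0.05). Both 256 and 253 are fewer than chance alone would give, so these tests may be conservative, and why was not tested. Fosb had the largest fitted difference of the members in each condition. In normoxia N_KO was above N_WT by 0.59 (95% confidence interval -0.06 to 1.23, limma adjusted p = 1.000). Under deprivation OGD_KO was below OGD_WT, with a difference of -0.41 (-0.87 to 0.05, limma adjusted p = 1.000), and the groups overlapped in both conditions. With library weights, whose estimation did not fully converge, the Fosb differences were 1.53 and -1.32, and 2 members were called in normoxia and 4 under deprivation. That fit called 926 of all 14152 genes in normoxia and 4757 of 14185 under deprivation.

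The other members had smaller fitted differences. In normoxia the fitted log2 difference was 0.27 for Fos (-0.22 to 0.75), 0.25 for Junb (-0.28 to 0.79), 0.06 for Fosl2 (-0.25 to 0.36), 0.01 for Jun (-0.34 to 0.35) and -0.03 for Jund (-0.33 to 0.28). Under deprivation it was -0.11 for Fos (-0.53 to 0.30), -0.08 for Junb (-0.48 to 0.32), -0.20 for Fosl2 (-0.66 to 0.27), -0.15 for Jun (-0.49 to 0.19) and -0.03 for Jund (-0.66 to 0.60). Among the cultures of batch 3 the Fosb differences were 0.61 in normoxia and -0.20 under deprivation.

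Whether the response itself differed between genotypes was tested by the interaction of genotype and deprivation, with the culture as a block. None of 13688 genes was called, which is 0% (limma, 99 at an unadjusted p under 0.05). Those 99 are fewer than chance alone would give, so this test may be conservative. The lack of a call is therefore weak evidence that a response was equal in the genotypes. The Fosb response was smaller in KO, with an interaction of -1.05 (SE 0.45, unadjusted 95% confidence interval -1.97 to -0.13, limma adjusted p = 1.000). In the 5 WT cultures the Fosb response ranged from 3.30 to 5.31 and in the 5 KO cultures from 1.39 to 4.55, and an exact permutation test of these cultures gave p = 0.151. Without culture KO3, the only one of batch 2, the interaction was -0.63, and leaving out each other culture gave -1.42 to -0.75. The difference in Fosb therefore did not pass after adjustment or in the exact test, and KO3 moved it most. The interactions of the other members were -0.39 for Fos (-1.10 to 0.32), -0.35 for Junb (-1.12 to 0.43), -0.26 for Fosl2 (-0.87 to 0.35), -0.16 for Jun (-0.69 to 0.36) and -0.01 for Jund (-0.83 to 0.82).

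**Figure D5:**
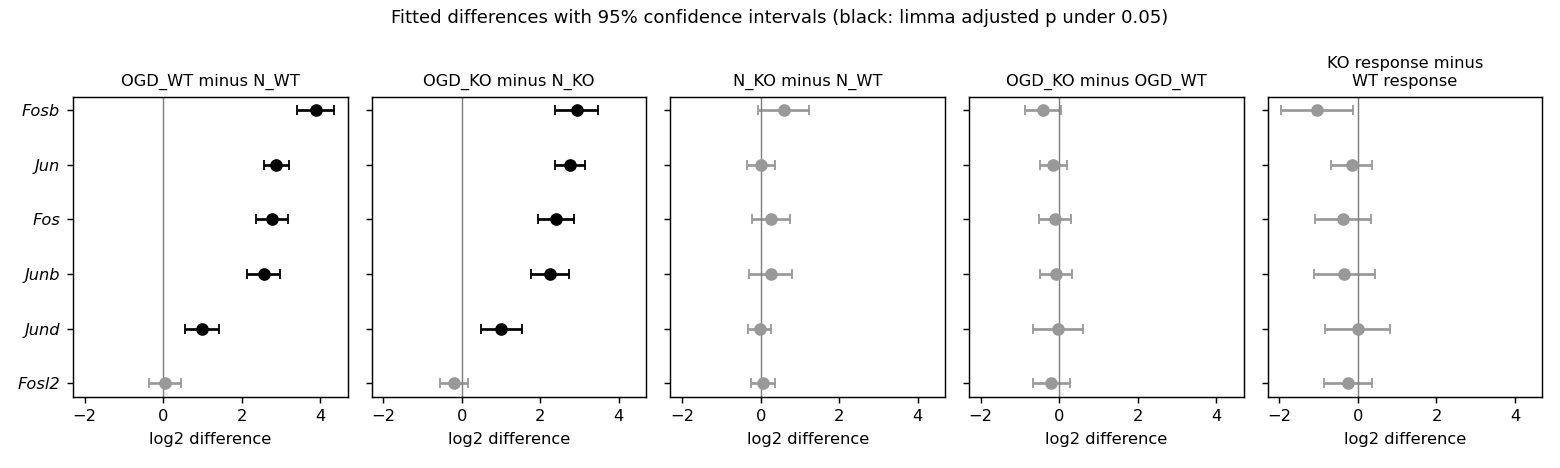
Points are fitted log2 differences (horizontal axis) of the 6 genes (vertical axis) with 95% confidence intervals in 5 comparisons; black marks a limma adjusted p under 0.05. The 5 genes other than Fosl2 are black in both comparisons of deprivation, and no gene is black in the comparisons of genotype or in the interaction, where Fosb lies at -1.05.

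Ordered by mean level, the normoxic groups came below the deprived groups for Fos, Fosb, Jun, Junb and Jund, whereas for Fosl2 the order was OGD_KO, N_WT, OGD_WT and N_KO. Neighbours in each order were compared by exact permutation of 5 against 5 libraries (two-sided, smallest possible p 0.00794), adjusted over 18 tests. The step from N_KO to OGD_KO passed for Fos, Fosb, Jun and Junb (exact p = 0.00794, adjusted p = 0.0357 in each). For Jund the step from N_WT to OGD_KO had an exact p of 0.0317 and an adjusted p of 0.114. Neighbours of the same condition did not differ beyond their spread for any member, and neither did any neighbours of Fosl2.

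For each member the 2 genes with the nearest response in the same 10 cultures were found among 12678 genes whose mean log2 CPM was 1 or more, by the mean absolute difference of log2 responses. Ppfibp2, a liprin gene, came first for both Fos (0.52 apart) and Junb (0.49 apart). Maff, which encodes a small MAF protein of the leucine zipper family, was second for Fos (0.56), and Dusp16, a phosphatase gene of MAP kinases, was second for Junb (0.53). Nr4a1, an immediate early gene for a nuclear receptor, was nearest to Fosb (0.53), with Hk2, a glycolytic hexokinase, second (0.74). Jun had a closer neighbour in Neurog2, a proneural transcription factor (0.26), then Cmya5 (0.29). Jund was nearest to Mbnl2, a splicing factor (0.24), and Gm37298 (0.24), and Fosl2 to Sumf1 (0.18) and Trhde (0.23).

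Other genes of the pathway were read from lists chosen with earlier results of these data known, so their counts are descriptions. Each list's counts stand against the shares of all genes called higher (21.6% in WT and 21% in KO) and lower (22.8% and 19.9%). Of 11 listed AP-1 dimer partners, 6 were called higher and 1 lower in each genotype. Atf3, a stress-induced partner of JUN proteins, rose by 2.96 in WT and 2.85 in KO (limma adjusted p = 2.61e-11 and 4.63e-08). Maff rose by 2.83 and 2.74, Mafk by 1.15 and 0.83, and Bach1, a repressor that pairs with small MAF proteins, by 0.49 and 0.46. The list's median was 0.44 in WT and 0.43 in KO.

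Among 15 transcription factors known to act on FOS and JUN promoters, 5 were called higher and 2 lower in WT, and 5 higher and 3 lower in KO. Srf, the serum response factor, rose by 2.00 in WT and 1.77 in KO (limma adjusted p = 3.91e-08 and 6.23e-08). Its ETS-family partner Elk3 rose by 1.08 and 0.93, the CREB coactivator Crtc2 by 1.06 and 1.15, and Atf1 by 0.63 and 0.77. Mrtfb, a coactivator of Srf, fell, with differences of -0.93 and -0.84. The list's medians of 0.09 and 0.06 were near those of all genes.

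No MAP kinase gene upstream of AP-1 was called higher. Of 17 listed, 4 were called lower in WT and 5 in KO, shares near those of all genes (22.8% and 19.9%). Rps6ka3, which encodes the kinase RSK2, fell by 0.90 in WT and 0.74 in KO, Map2k4, a kinase of JNK, fell by 0.66 and 0.64, and Mapk9, which encodes JNK2, fell by 0.50 and 0.57. These are mRNA levels, and kinase activity was not measured.

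Of 8 listed genes reported as AP-1 targets, 6 were called higher and 1 lower in each genotype. Ptgs2, which encodes cyclooxygenase 2, rose by 3.07 in WT and 2.93 in KO (limma adjusted p = 8.40e-10 and 4.37e-09). Hmox1, haem oxygenase 1, rose by 2.03 and 2.04, the adhesion receptor gene Cd44 by 1.65 and 1.77, and Bcl2l11, which encodes the pro-apoptotic protein BIM, by 1.28 and 1.02. Tnc, an extracellular matrix gene, rose by 0.82 and 0.96, and Vim, a filament gene of glia and progenitors, by 1.25 and 1.28. Penk, the enkephalin precursor, fell, with differences of -0.81 and -1.31. A further 15 genes of this list were not listed in the tables, so the count covers a minority of it.

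Genes of the turnover of FOS and JUN mRNA or protein moved in both directions. In WT 2 of 9 listed were called higher and 2 lower, and in KO 4 of 10 higher and 2 lower. Zfp36l2 and Zfp36l1, which encode proteins that destabilise mRNAs with AU-rich elements, rose by 1.53 and 0.60 in WT and by 1.26 and 0.60 in KO. Zfp36, the founding gene of that family, rose by 1.58 in KO and was not listed in the WT table. Fbxw7, a ubiquitin ligase subunit that recognises c-Jun, fell by 0.80 in WT and 0.79 in KO. No gene of these 5 lists was called in either comparison of genotypes.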

How the data were processed

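RNA sequencing of total RNA gave 4 tables of 10 libraries, 1 per comparison. The authors deposited log2 CPM values; the build is mm10 per the submitters' processing notes, and the aligner, annotation and counting are not given in the sources used here. In each gene and group of 5 the extremes had been clipped at the 10th and 90th percentile (weights 0.6 and 0.4), as inferred from the values. This was undone: 45.5% to 92.8% of a library's deposited values gave whole counts, and at least 99.91% afterwards (within 0.05, genes of up to 500 counts).

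Each table was fitted on the unclipped log2 CPM with limma 3.58.1 (R 4.3.3, intensity trend, two-sided, adjusted p under 0.05 over all genes). Clipped values understate the spread, and were an alternative. The interaction used joint log2 CPM with a prior count of 2 and the culture as a block (duplicateCorrelation, -0.19). N and OGD libraries were paired by number, and each pair shares its genotype and batch labels. WT2 and WT4 share batch 3.3, and KO2 and KO4 share batch 3.1, so there only the number sets the pairs. Same-numbered deviations had r from -0.80 to 0.03. Except for number 1, the numbers of WT and KO cultures stand for different batches. The code was tested on simulated data.

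Members and lists were chosen with earlier results of these data known. Named were all members, the 2 genes with the nearest response to each, Cdr1as, and from each list up to 5 called genes with the largest change and no overlap of groups in at least 1 genotype. Total-count scaling, a prior count of 0.5 for the group order, the correlations of responses and the batch checks were chosen after seeing the data. Alternatives were voom, size factors, another prior count, a low-value filter, library weights, blocks, batches and left-out libraries.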

Additional observations from a re-analysis of the deposited data

Results flagged for a closer look

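Of 36 sets of 5 values examined, 2 had an extreme value that Dixon's criterion set apart, where chance gives about 1.8. In OGD_WT, Jun was at 9.72 log2 CPM in replicate 2 and between 9.14 and 9.30 in the other 4 libraries. In the same group, Jund was at 6.08 log2 CPM in replicate 5 and between 7.16 and 7.44 in the others.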

How the results depend on the processing

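Of 492 recomputed member values, 449 kept their direction and side of the threshold, 35 that were not past the threshold changed sign and stayed there, 7 passed it newly and 1 reversed. The reversal was Fosl2 in WT under deprivation, at -0.22 with limma's library weights (adjusted p = 0.0017). Library weights, whose estimation did not fully converge, called 12309 genes for deprivation in WT and 10573 in KO, and for the knockout 926 in normoxia (2 members, Fosb at 1.53 and Junb at 0.72) and 4757 under deprivation (4 members, Fosb at -1.32, Junb at -0.61, Fos at -0.42 and Jun at -0.27); the cause was not tested. The KO response had 2341 genes called in batch 3 alone. For the knockout in normoxia, where 5 genes were called, the deposited values gave 9, the replicate block 3, a mean log2 CPM of at least 1 gave 3, and batch 3 gave 2. Under deprivation, where 4 were called, the deposited values gave 12, the replicate block 2, a prior count of 0.5 gave 1, total-count scaling 2, and a batch covariate 2; the cause was not tested. Leaving out 1 library gave 3 to 5 genes in normoxia (3 without N_KO replicate 2) and 1 to 7 under deprivation: 1 without OGD_KO replicate 1 or 2, 2 without OGD_WT replicate 1, 3 or 4 or OGD_KO replicate 3, and 7 without OGD_KO replicate 5. The replicate block for the response of each genotype kept 5 members called (Jund adjusted p = 0.00103 in WT and 0.0109 in KO) and changed no other member's call. Left-out cultures gave 11 or 12 called pairs of members, and 4 neighbours in the group order were called in each alternative. Depth limits Fosb most, with 6 to 37 normoxic counts.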
